A study of Mus musculus with 25 samples.

Results

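The genes of the proteasome were followed through 25 bulk RNA-seq libraries of mouse Achilles tendon. The members were all genes whose symbol was Psma, Psmb, Psmc, Psmd, Psme, Psmf or Psmg followed by a number, which selected 48 of the 55487 genes in the count table. Of these, 46 were among the 19155 genes that passed the filter on low counts. Psma8 and Psmb11 did not pass it. The mice were 3 months old, of both sexes, and either wild type (WT) or AMPKcKO, a conditional knockout named for AMP-activated protein kinase and called cKO here. By the series title the lost subunit is AMPKα1, encoded by Prkaa1. Each genotype was kept at cage activity or given wheel running, with 7 WT cage, 6 WT running, 6 cKO cage and 6 cKO running libraries. The driver of the knockout and whether a library is 1 animal are not given in the sources used here, so p-values measure the spread between these libraries.

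The proteasome is the main protease of the cytosol and nucleus for proteins marked with ubiquitin. Its 20S core is a barrel of outer alpha rings (Psma genes) and inner beta rings (Psmb genes), of which Psmb5, Psmb6 and Psmb7 encode the catalytic subunits. Interferon-gamma induces a replacement for each of these, Psmb8 for Psmb5, Psmb9 for Psmb6 and Psmb10 for Psmb7, which together form the immunoproteasome. The 19S cap carries ATPases that unfold substrates (Psmc genes) and non-ATPase subunits that bind and remove ubiquitin (Psmd genes). Other caps are the interferon-inducible activator PA28αβ (Psme1 and Psme2), the nuclear activator PA28γ (Psme3) and PA200 (Psme4). Psmf1 encodes the inhibitor PI31. The products of Psmg1 to Psmg4 assemble the core, and those of Psmd5, Psmd9 and Psmd10 assemble the base of the cap.

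Library totals ran from 13193228 to 45724243 counts, with a median of 24538109. Prkaa1 lay between 13.4 and 31.2 CPM (counts scaled to a common library size) in the 13 WT libraries and between 13.9 and 22.6 CPM in the 12 cKO libraries, so the genotypes overlapped. Cre counts were 0 in all WT libraries and also in the library labelled cKO cage female replicate 3. The reporter eGFP was above 50 CPM in 6 of 6 cKO running, 2 of 6 cKO cage, 1 of 6 WT running and 0 of 7 WT cage libraries. Among runners, genotype and eGFP carriage therefore cannot be told apart beyond that 1 WT library. WT running female replicate 2 and WT running male replicate 3 lay at 112 and 83.1 on the second principal component, where no other library exceeded 7.6. All 12 tenocyte markers were tested, with a summed level of 6997 to 27360 CPM. Genes of skeletal muscle fibres, 23 markers in all, took 1.72% to 8.23% of a library's counts.

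Most structural subunits were well expressed, and the inducible catalytic subunits were much lower than the subunits they replace. FPKM divides by transcript length as well as by library size, so levels are compared between genes on this scale. Psmd4, a ubiquitin receptor of the cap, had the highest median over the 25 libraries at 117.7 FPKM, followed by the ATPase gene Psmc3 at 92.0 FPKM. In the alpha ring the 7 tested genes ran from Psma2 at 11.1 FPKM to Psma3 at 80.9 FPKM. The constitutive beta ring was narrower, from Psmb5 at 28.03 FPKM to Psmb6 at 66.5 FPKM, with Psmb7 at 54.4 FPKM. The ATPases ran from Psmc2 at 28.1 FPKM to Psmc3, and the non-ATPase subunits from Psmd3 at 19.6 FPKM to Psmd4. Subunits that sit together in 1 complex thus differed several-fold in transcript level.

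Accessory members were mostly lower. Of the inducible subunits, Psmb8 had a median of 13.8 FPKM, Psmb10 of 8.80 FPKM and Psmb9 of 2.3 FPKM. The cap chaperones lay between Psmd10 at 4.04 FPKM and Psmd5 at 5.57 FPKM. The core chaperones ran from Psmg3 at 5.14 FPKM to Psmg4 at 25.1 FPKM. Among the activators, Psme1 stood at 39.0 FPKM, Psme2 at 27.3 FPKM, Psme4 at 25.4 FPKM and Psme3 at 18.6 FPKM, above the inhibitor gene Psmf1 at 6.22 FPKM.

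The members under the filter encode the tissue-restricted subunits. Psma8, the alpha subunit of the testis proteasome, had 0 counts in 9 libraries, at most 19 in any library and 96 over all 25. Psmb11, the catalytic beta subunit of the thymus cortex, had 0 counts in 16 libraries, at most 16 in any and 47 over all. A count of 0 allows up to 3 counts, which is 0.0656 to 0.227 CPM over these depths, for counting error only. Pseudogenes of Psma5, Psmb5, Psmb6 and Psmb7 that the table names reached at most 1.63 CPM.

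**Figure D1:**
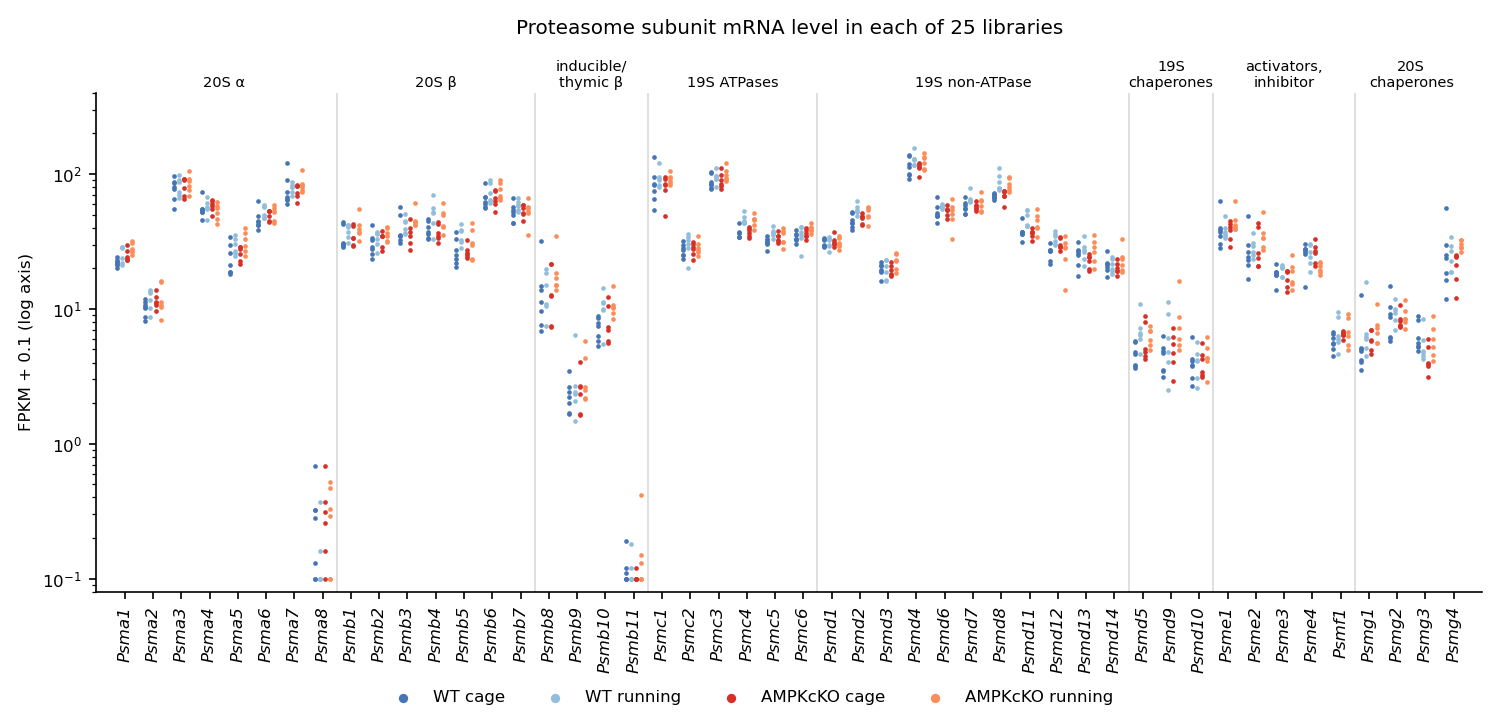
FPKM plus 0.1 on a log axis for each of the 48 members (columns, grouped by role), with 1 point per library in 4 colours for the conditions. The 20S and 19S subunits lie mostly between 10 and 150 FPKM, the inducible subunits and chaperones lower, and Psma8 and Psmb11 near 0, while the 4 conditions overlap within each gene.

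The members varied less between libraries than most genes. The SD of log2 CPM over the 25 libraries had a median of 0.28 for the 46 tested members and of 0.45 for all 19155 genes. It was smallest for Psmd5 at 0.20 and for Psmc3 at 0.21. Psmc3, for example, ran from 74.8 CPM in WT running male replicate 3 to 141.1 CPM in WT running male replicate 1. The SD was largest for the inducible Psmb9 at 0.56 and for Psme4 at 0.50.

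The constitutive subunits of the core and the cap varied together across the libraries. These were the 31 tested members of the alpha ring, the constitutive beta ring, the ATPases and the non-ATPase subunits. After the fitted means of condition and sex were removed, all 465 pairs among them had a positive Pearson correlation over the 25 libraries, with a median r of 0.73 and a range of 0.18 to 0.96. These values are descriptions: the pairs share libraries, depth and scaling. Over all pairs of a member with any other tested gene the median r was -0.03. Pairs within the ATPases had a median r of 0.82, and pairs between ATPases and non-ATPase subunits 0.81. The pair with the highest r, picked here for that value, was Psmd1 with Psmd7.

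The interferon-inducible members had lower correlations with these subunits. The set held Psmb8, Psmb9, Psmb10, Psme1 and Psme2. Among themselves the 10 pairs had a median r of 0.45, with Psmb8 and Psme2 at 0.79. Against the 31 constitutive subunits the median r was -0.07, with 63 of 155 pairs positive. With the muscle marker score also removed, this median was 0.23, with 117 of 155 pairs positive, so its sign turned. By gene, the median r against the constitutive subunits was -0.48 for Psmb9, -0.25 for Psmb8, -0.04 for Psme2, 0.07 for Psmb10 and 0.34 for Psme1, whereas Psma4 had a median r of 0.83 with the other 30. The catalytic pairs themselves had an r of -0.47 for Psmb8 with Psmb5, -0.36 for Psmb9 with Psmb6 and -0.09 for Psmb10 with Psmb7.

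The activators and chaperones divided. Psme3 and Psme4 had median r of 0.71 and 0.67 with the constitutive subunits, within the range of the constitutive subunits themselves. Psmf1 had 0.01, Psmg3 -0.03, Psmd9 -0.21 and Psmg1 -0.29. Psmg2 (0.58) was also within the range of the constitutive subunits, whose lowest was Psmb2 at 0.56. Psmd10 (0.43), Psmd5 (0.35) and Psmg4 (0.27) lay between these groups. Without the pair of libraries that stood apart on the second component, the median r of the constitutive pairs was 0.74. With the muscle marker score also removed it was 0.42, with 446 of 465 pairs positive, against the 0.23 given above for pairs of a constitutive with an inducible member.

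**Figure D2:**
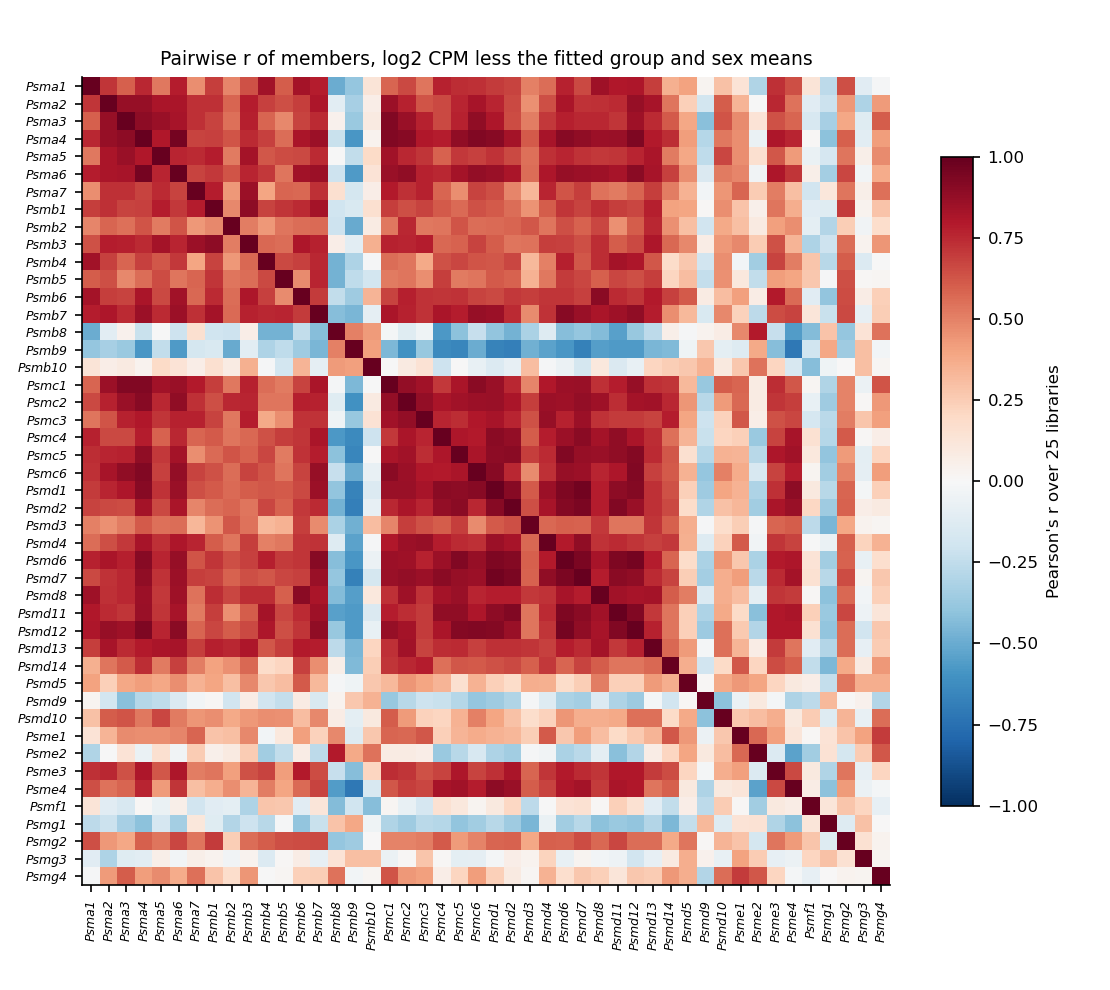
Pearson's r over 25 libraries for each pair of the 46 tested members, from log2 CPM less the fitted condition and sex means, with members ordered by role and colour from -1 (blue) to 1 (red). The constitutive 20S and 19S genes are red throughout (465 of 465 pairs above 0), crossed by pale or blue lines at Psmb8, Psmb9, Psmb10, Psmd9 and Psmg1.

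Since these subunits varied together, their promoters were searched for shared motifs. RefSeq windows on GRCm38.p6, from 250 bases before to 50 after a gene's start, matched 40 of the 48 members with 43 windows. The core of the antioxidant response element, to which Nrf1 and Nrf2 bind, was written as TGACNNNGC, or GCNNNGTCA on the other strand. It was present in 6 of 43 member windows (14%) and in 12.4% of all 32851 windows of that length. The CCAAT box, CCAAT or ATTGG, was present in 32.6% of the member windows and in 37.4% of all windows. Both shares of the members lay near those of all windows. The 6 genes with the first motif were Psmb5, Psmb6, Psmc6, Psmd9, Psmd12 and Psme4. The 3 in which it lay wholly within 100 bases before the start are shown to let the match be seen beside its surroundings, 5′ to 3′ on the gene's strand, with the motif in capitals and the last base next to the start. Psmb5 lies on the minus strand (chr14:54617996-54618095), Psmb6 on the plus strand (chr11:70525257-70525356) and Psmd9 on the plus strand (chr5:123228090-123228189).
Psmb5: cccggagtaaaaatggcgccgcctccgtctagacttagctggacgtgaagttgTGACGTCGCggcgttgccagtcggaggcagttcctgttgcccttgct
Psmb6: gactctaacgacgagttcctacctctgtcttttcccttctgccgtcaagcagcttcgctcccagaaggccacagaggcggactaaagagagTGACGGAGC
Psmd9: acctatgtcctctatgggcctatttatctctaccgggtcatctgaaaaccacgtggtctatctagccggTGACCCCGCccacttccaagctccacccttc
The motif began 47 bases before the start in Psmb5, 9 in Psmb6 and 31 in Psmd9. Psmb5 and Psmb6 belonged to the set that varied together, and Psmd9 did not.

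The cKO genotype was compared with WT first at cage activity, which asks whether proteasome transcripts differed by genotype without wheel running. The 4 comparisons within 1 genotype or 1 activity share libraries with each other, so their values are set side by side and are not independent. No member passed edgeR's quasi-likelihood test with Benjamini-Hochberg adjustment over all genes. The background was also empty, with 0 of 19155 genes called (0%), 217 at an unadjusted p below 0.05 and 0 called by DESeq2. The log2 fold change was positive for 42 of 46 members, with a median of 0.09 beside 0.00 for all genes. The direction covered 7 of 7 alpha, 6 of 7 constitutive beta, 6 of 6 ATPase and 10 of 11 non-ATPase genes. On the FPKM scale, 34 of 46 were positive.

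The size of these differences was small. Psma1 and Psma5, outer ring subunits, had the smallest p among the positive members. Psma5 (0.24 ± 0.16 SE) lay at 19.8, 22.7 and 31.8 CPM in WT cage and at 21.0, 26.9 and 35.9 CPM in cKO cage, as lowest, median and highest library. Psma1 differed by 0.23 ± 0.13 SE, with a 95% interval of -0.04 to 0.51. The groups overlapped for both genes. Leaving out 1 library at a time moved the median of the 31 constitutive subunits between 0.02, without cKO cage male replicate 2, and 0.16, without WT cage female replicate 3.

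Psmg3, a chaperone of core assembly, had the opposite sign. It lay at 3.43, 4.59 and 5.08 CPM in the WT cage libraries and at 2.68, 3.13 and 4.48 CPM in the cKO cage libraries. Its log2 fold change was -0.39 ± 0.17 SE (unadjusted p = 0.0257, adjusted p = 1, edgeR), the only member with an unadjusted p under 0.05 here. Its exons overlap those of Gm26938 on the same strand, so its counts are uncertain. Psmg4, its partner in assembly, had -0.15 ± 0.21 SE.

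In runners, the same contrast had the opposite sign for most structural subunits and stayed positive for the inducible set. No member passed the test, and again 0 of 19155 genes were called (0%), with 2173 at an unadjusted p below 0.05, 3 of them members, and 0 by DESeq2. The log2 fold change was negative for 30 of 31 constitutive subunits (median -0.21) and for 36 of 46 members (median -0.13, all genes 0.01). All 7 alpha, 7 beta and 6 ATPase genes were negative. On the FPKM scale, whose all-gene median was shifted by 0.12, 26 members were positive and 20 negative, 16 of 31 constitutive subunits were negative and 26 of 31 lay below that shift. All 5 inducible members were positive on both scales, with a median of 0.25 in CPM, and 4 of 5 lay above the shift.

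Psmd2 and Psmd12, non-ATPase subunits of the cap, illustrate the structural genes. Psmd2 lay at 101.9, 142.3 and 170.6 CPM in WT runners and at 73.5, 105.8 and 150.3 CPM in cKO runners, a log2 fold change of -0.35 ± 0.17 SE (adjusted p = 0.44, edgeR). Psmd12 lay at 37.5, 55.8 and 74.1 CPM against 16.4, 46.1 and 57.9 CPM, a log2 fold change of -0.41 ± 0.22 SE. The groups overlapped, and the lowest cKO value of both genes was that of male replicate 2. Without that library the median of the constitutive subunits was -0.12, and without cKO running female replicate 3 it was -0.27.

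Muscle markers had the same sign as the structural subunits. All 16 fast-fibre and all 7 slow-fibre markers had a negative log2 fold change in cKO runners against WT runners (medians -0.72 and -0.55, none called). The summed fast-fibre level ran from 18690 to 90630 CPM in WT runners and from 8606 to 34950 CPM in cKO runners. In bulk tissue, fewer cells of a type and less RNA per cell cannot be told apart. With the muscle score in the model, 18 of 31 constitutive subunits were negative (median -0.09) and 4 of 5 inducible members were positive (median 0.24). Schwann cell markers were positive for 6 of 6 genes (median 1.499), with a summed level of 69.7 to 272.3 CPM in WT runners and 96.2 to 1212 CPM in cKO runners, mast cell markers for 5 of 5 (median 1.11) and erythroid markers for 5 of 5 (median 1.49). Their part in the result was not tested.

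Psme2 and Psmb8 led the positive members in runners. Psme2 lay at 12.0, 15.5 and 18.4 CPM in WT runners and at 16.7, 19.1 and 26.2 CPM in cKO runners, a log2 fold change of 0.38 ± 0.17 SE (unadjusted p = 0.0296, adjusted p = 0.42, edgeR). Psmb8 lay at 8.12, 9.16 and 14.7 CPM against 10.8, 13.3 and 22.4 CPM, a log2 fold change of 0.52 ± 0.27 SE (95% interval -0.04 to 1.08). The lower end of the cKO range overlapped the upper end of the WT range for both genes. Psmb10 had 0.25 ± 0.15 SE, Psmb9 0.12 ± 0.34 SE and Psme1 0.03 ± 0.15 SE. Macrophage markers were positive for 10 of 11 genes in this comparison (median 0.20, none called). Their summed level was 249.7 to 616.6 CPM in WT runners and 301.6 to 780.5 CPM in cKO runners. At cage activity they were positive for 11 of 11 genes (median 0.19). Dendritic cell markers were positive for 5 of 7 genes in runners (median 0.28) and for 5 of 7 at cage activity (median 0.19). The part of these markers in the values of the inducible members was not tested.

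Averaged over both activities, the genotype contrast left 18 members positive and 28 negative, with none called, and 26 positive and 20 negative on the FPKM scale. The background was 1 of 19155 genes (0.00522%). The inducible set was positive for 5 of 5 genes (median 0.19) and the constitutive set for 9 of 31 (median -0.05). Leaving out 1 library gave 4 to 17 positive constitutive subunits, and the median turned to 0.00 without cKO running male replicate 2. Psme2 (0.24 ± 0.12 SE) and Psmb10 (0.19 ± 0.10 SE) had the smallest p among the positive members, and Psme3 (-0.14 ± 0.10 SE) and Psmd4 (-0.12 ± 0.10 SE) among the negative, all at an adjusted p of 0.981 (edgeR).

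**Figure D3:**
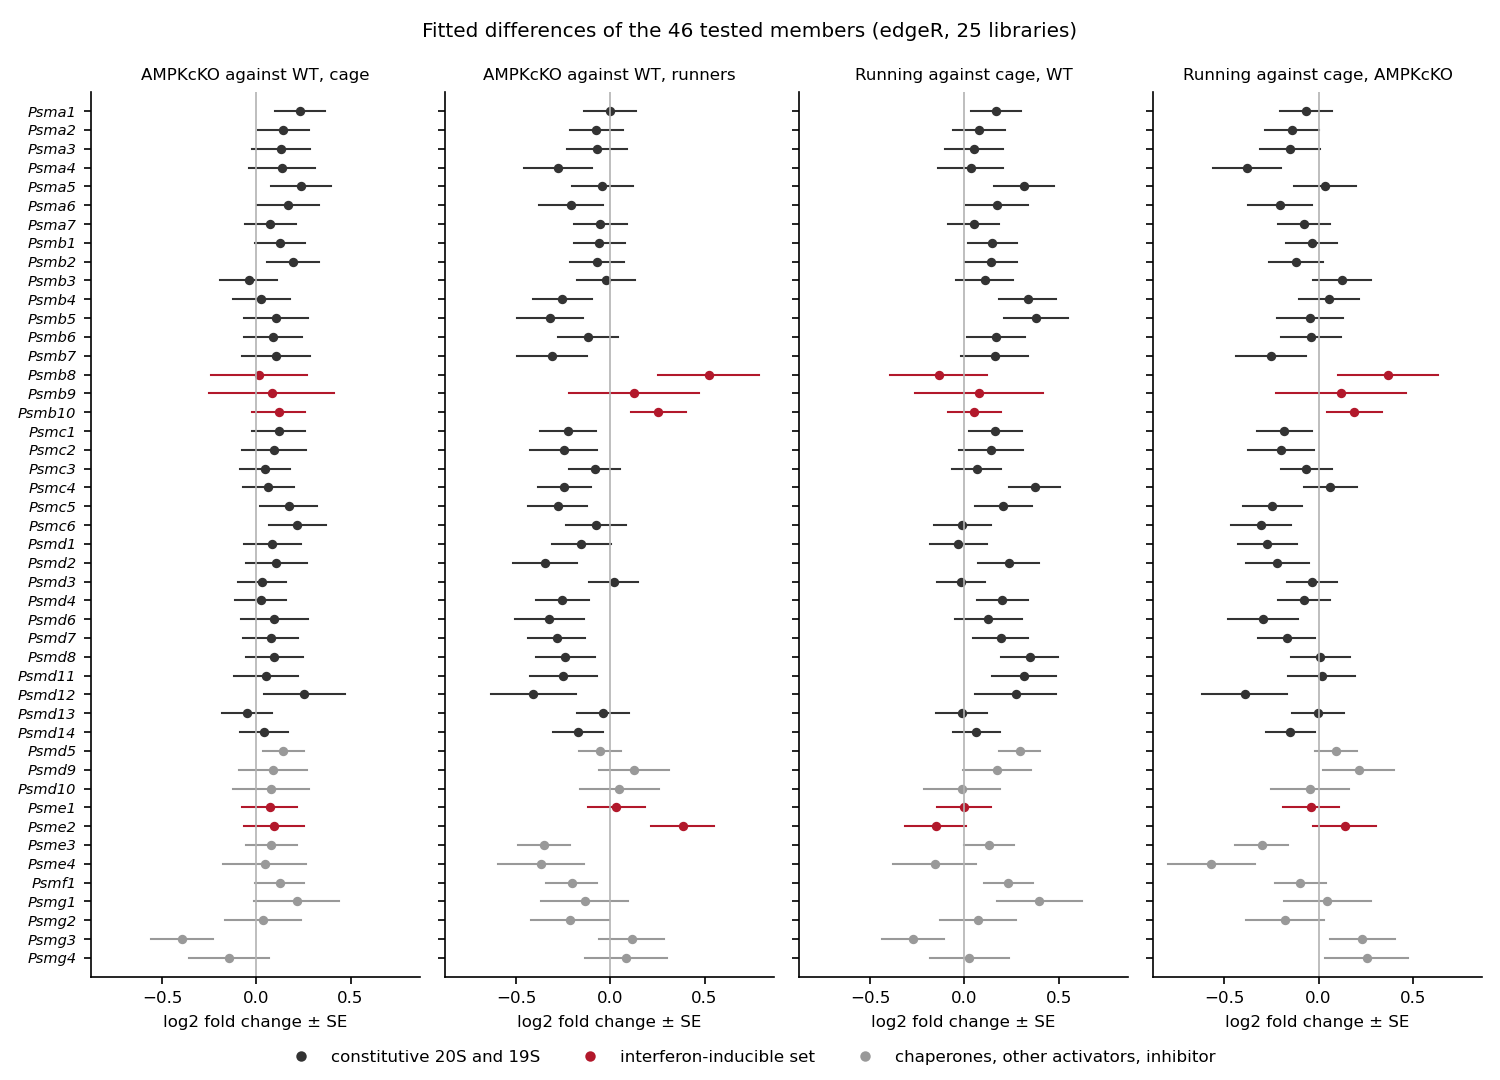
Log2 fold change with its standard error for the 46 tested members (rows) in 4 comparisons (panels), from edgeR on 25 libraries; black marks constitutive 20S and 19S genes, red the interferon-inducible set and grey the other members. Black points lie right of 0 for 29 of 31 genes in cKO against WT at cage activity and left of 0 for 30 of 31 in runners, while the 5 red points lie right of 0 in both.

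Wheel running was compared with cage activity within each genotype, which asks how proteasome transcripts responded to loading of the tendon. In WT no member passed the test, beside 25 of 19155 genes (0.131%). There were 5 of 46 members at an unadjusted p under 0.05, beside 1866 of 19155 genes (9.74%). DESeq2, which called 157 genes, also called no member. The log2 fold change was positive for 27 of 31 constitutive subunits (median 0.16) and for 36 of 46 members (median 0.14, all genes 0.00). In FPKM, 41 of 46 members and 28 of 31 constitutive subunits were positive. The inducible set was split, with 2 of 5 positive, and 5 of 5 on the FPKM scale. Slow-fibre muscle markers were positive for 7 of 7 genes (median 0.23) and fast-fibre markers for 13 of 16 (median 0.21), with none called. Macrophage markers were positive for 10 of 11 genes (median 0.44, none called), and their part in these values was not tested.

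Psmc4 and Psmd5 had the smallest p in WT. Psmc4 encodes an ATPase of the cap. It lay at 31.2, 41.6 and 48.3 CPM in the WT cage libraries and at 41.5, 55.6 and 64.8 CPM in the WT running libraries, a log2 fold change of 0.37 ± 0.14 SE (95% interval 0.09 to 0.66, adjusted p = 0.335, edgeR). Psmd5, a chaperone of cap assembly, lay at 14.2, 17.0 and 18.8 CPM against 16.5, 19.8 and 25.2 CPM, a log2 fold change of 0.29 ± 0.11 SE (adjusted p = 0.342). The upper part of the WT running range cleared the cage range for both genes, while the lowest running value, that of male replicate 3, lay inside it. For Psmc4, WT running female replicate 1 at 43.5 CPM also lay inside the cage range. The top of that range was WT cage female replicate 4, of the less common project name. The next highest, WT cage male replicate 1, lay at 44.1 CPM. Among the negative members Psmg3 had -0.27 ± 0.17 SE and Psme2 -0.15 ± 0.16 SE. The sign of Psme2 depended on the scale, with 0.14 on log2(FPKM + 1).

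The catalytic subunit Psmb5 was tightly placed in WT runners. The 6 running libraries lay between 21.7 and 24.3 CPM with a median of 22.8 CPM, and the 7 cage libraries lay between 14.4 and 23.7 CPM with a median of 16.8 CPM. The log2 fold change was 0.38 ± 0.17 SE (unadjusted p = 0.0346, adjusted p = 0.457, edgeR). The highest cage library, female replicate 4, was inside the running range. That library carried the less common project name. The next highest cage library, female replicate 3, lay at 19.2 CPM, below the running range. Psmb6 had 0.17 ± 0.15 SE and Psmb7 0.16 ± 0.18 SE.

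The muscle score, the centred mean level of the 23 fibre markers on the log2 scale, ran from -1.53 to 0.70 in WT cage and from -1.16 to 1.58 in WT running libraries. With this score as a covariate, edgeR called 3 members, Psmc4 (0.43 ± 0.08 SE, adjusted p = 0.00309), Psmd11 (0.42 ± 0.10 SE, adjusted p = 0.0228) and Psmd8 (0.40 ± 0.09 SE, adjusted p = 0.0232), beside 347 of 19155 genes (1.81%). Psmd8 and Psmd11 encode cap subunits and were named because they were called here. All 31 constitutive subunits were then positive, with a median of 0.21. Psmd11 lay at 38.7, 63.4 and 78.7 CPM in the WT cage libraries and at 63.2, 80.2 and 90.4 CPM in the WT running libraries. Psmd8 lay at 61.3, 80.7 and 90.3 CPM against 70.2, 105.7 and 123.3 CPM. The groups overlapped for both genes. Without the pair of WT running libraries that stood apart and with no covariate, 31 of 31 constitutive subunits were positive (median 0.24) and no member was called. Leaving out 1 library at a time gave a median of 0.10, without WT running female replicate 3, to 0.23, without WT running male replicate 3.

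In cKO most structural subunits had a negative log2 fold change with running. No member passed the test, beside 8 of 19155 genes (0.0418%). An unadjusted p under 0.05 was found for 3 of 46 members, beside 2596 genes (13.6%). DESeq2, which called 208 genes, called no member. The log2 fold change was negative for 25 of 31 constitutive subunits (median -0.12) and positive for 4 of 5 inducible members (median 0.14), with 15 members positive and 31 negative in all. On the FPKM scale, whose all-gene median was shifted by 0.18, 40 members were positive and 6 negative, 26 of 31 constitutive subunits were positive and 18 of 31 lay below that shift. With the muscle score in the model 21 of 31 constitutive subunits (median 0.02) and 2 of 5 inducible members were positive, beside 16 of 16 fast-fibre markers that were negative (median -0.53) without it. Macrophage markers were positive for 9 of 11 genes (median 0.49), Schwann cell markers for 6 of 6 (median 1.67), mast cell markers for 5 of 5 (median 0.92) and erythroid markers for 5 of 5 (median 0.80), with none called and their part in the values of the inducible members not tested. The direction of the structural genes in cKO runners therefore depended on the scaling and on the muscle covariate. Without cKO running male replicate 2 the median was -0.03, and without cKO running female replicate 3 it was -0.21.

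Psme3 and Psme4 had their lowest medians in cKO runners. Psme4, the activator PA200, lay at 91.6, 156.5 and 220.1 CPM in cKO cage and at 72.4, 105.1 and 125.2 CPM in cKO running libraries, a log2 fold change of -0.57 ± 0.23 SE (unadjusted p = 0.0205, adjusted p = 0.283, edgeR). Over the 25 libraries Psme4 had an r of 0.88 with the muscle score, and all 16 fast-fibre markers were negative in this comparison (median -0.53). Psme3, the activator PA28γ, lay at 26.7, 33.1 and 43.1 CPM against 20.8, 27.98 and 34.4 CPM, a log2 fold change of -0.30 ± 0.14 SE (adjusted p = 0.345), and its sign turned to 0.09 on log2(FPKM + 1). The groups overlapped for both genes. Psmb8 (0.37 ± 0.27 SE) and Psmg3 (0.23 ± 0.17 SE) had the smallest p among the positive members.

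As the mean of both genotypes, running left 23 members positive and 23 negative, with a median of 0.00. That split rested on single libraries: leaving out 1 gave 18 to 34 positive members, and 9 to 25 of 31 positive constitutive subunits, whose median was 0.04 without cKO running male replicate 2 and -0.05 without cKO running female replicate 3. Macrophage markers were positive for 10 of 11 genes (median 0.49, none called). No member was called, beside 273 of 19155 genes (1.43%), with 637 genes and no member called by DESeq2. Among the positive members Psmd5 (0.19 ± 0.08 SE, adjusted p = 0.235) and Psmc4 (0.22 ± 0.10 SE, adjusted p = 0.293) had the smallest p by edgeR. Among the negative these were Psme4 (-0.36 ± 0.16 SE, adjusted p = 0.278) and Psmc6 (-0.16 ± 0.11 SE, adjusted p = 0.527), and the sign of Psmc6 turned to 0.08 on the FPKM scale. On the FPKM scale, whose all-gene median was shifted by 0.11, 43 of 46 members were positive and 32 of 46 lay above the shift, and limma called Psmc4 (0.30 ± 0.06 SE, adjusted p = 0.0238) and Psmd8 (0.31 ± 0.07 SE, adjusted p = 0.0372), beside 155 of 19155 genes (0.809%). With the muscle score in the model, edgeR called Psmc4 (0.35 ± 0.06 SE, adjusted p = 0.0014), Psmd11 (0.34 ± 0.07 SE, adjusted p = 0.0109) and Psmd8 (0.31 ± 0.07 SE, adjusted p = 0.0155), beside 420 of 19155 genes (2.19%). Limma-voom with library quality weights called Psme4 alone, at -0.40 ± 0.12 SE (adjusted p = 0.0453), beside 912 of 19155 genes (4.76%), so 1 of 46 members was no larger a share than that of all genes.

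The difference between the genotypes in their response to running was tested directly as an interaction. No member passed, and 0 of 19155 genes were called (0%). DESeq2 also called 0, and 1377 genes, 4 of them members, were at an unadjusted p below 0.05. The interaction was negative for 29 of 31 constitutive subunits (median -0.28) and positive for 4 of 5 inducible members (median 0.14), beside a median of 0.02 for all genes. The constitutive median was -0.18 without cKO running male replicate 2 and -0.39 without cKO running female replicate 3. On the FPKM scale 18 members were positive and 28 negative, against 9 and 37 on the CPM scale. There it was negative for 21 of 31 constitutive subunits, and 27 of 31 lay below the shift of 0.15 in all genes. With the muscle score in the model 27 of 31 were negative (median -0.15). Psmd12 had -0.66 ± 0.31 SE, Psme3 -0.43 ± 0.19 SE, Psmg3 0.51 ± 0.24 SE and Psmb8 0.51 ± 0.37 SE, the first 3 at an adjusted p of 0.672 (edgeR). The 95% interval for Psmd12 ran from -1.32 to -0.01.

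Between the sexes 24 members were positive and 22 negative in males against females. In FPKM, 5 were positive and 41 negative, and 18 lay above and 28 below the all-gene median of -0.06. Limma-voom had the other lean, with 37 positive and 9 negative, so no direction is given for the members. No member was called, beside 118 of 19155 genes (0.616%). Among the positive members Psme4 had the smallest p, at 0.39 ± 0.16 SE (adjusted p = 0.39, edgeR), followed by Psmc6 at 0.20 ± 0.11 SE. Psmg2 had -0.23 ± 0.15 SE and Psmb8 -0.28 ± 0.19 SE. Fast-fibre markers were positive for 15 of 16 genes (median 0.44) and slow-fibre markers for 0 of 7 (median -0.37). Schwann cell markers were positive for 0 of 6 (median -1.14), mast cell markers for 0 of 5 (median -0.86), dendritic cell markers for 0 of 7 (median -0.57), macrophage markers for 0 of 11 (median -0.22) and erythroid markers for 0 of 5 (median -1.14), with none of these markers called. Their part in the values of Psme4 and Psmb8 was not tested.

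The balance between inducible and constitutive catalytic subunits was read as the FPKM ratio within each library. Positions are on GRCm38. Psmb8 (chr17:34197721-34201454, plus strand) over Psmb5 had a median of 0.46 over the 25 libraries, with a range of 0.21 to 1.47. Psmb10 over Psmb7 had a median of 0.164 and a range of 0.0876 to 0.42. Psmb9 (chr17:34181987-34187764, minus strand) over Psmb6 was lowest, with a median of 0.0305 and a range of 0.0225 to 0.0994. Psmb9 overlaps exons of Tap1 on the opposite strand, and Psmb8 those of Gm20496. The strand setting of the counts is not given in the sources used here, so reads of the partners cannot be told apart.

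The ratio Psmb8/Psmb5 averaged 0.50 ± 0.22 (SD, n = 7) at cage activity and 0.39 ± 0.13 (SD, n = 6) with running in WT. In cKO it averaged 0.51 ± 0.22 (SD, n = 6) at cage activity and 0.67 ± 0.42 (SD, n = 6) with running. The difference of cKO from WT runners was 0.67 on the log2 scale (two-sided exact permutation test, p = 0.0996, adjusted p = 0.649 over 15 tests). The highest library, cKO running male replicate 2 at 1.47, was the only one in which Psmb8 exceeded Psmb5. Without it the difference was 0.40. The 2 groups overlapped.

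For Psmb10/Psmb7 the mean was higher in runners in both genotypes, with overlapping ranges. In WT it was 0.137 ± 0.0309 (SD, n = 7) at cage activity and 0.177 ± 0.0587 (SD, n = 6) with running. In cKO it was 0.149 ± 0.0492 (SD, n = 6) and 0.213 ± 0.103 (SD, n = 6). All 12 runners against all 13 cage libraries differed by 0.40 on the log2 scale (permutation test, two-sided, p = 0.0328, adjusted p = 0.492), and by 0.18 as a ratio of CPM. As a ratio of CPM, the WT difference turned from 0.33 to -0.12. Psmb9/Psmb6 differed by 0.05 to 0.18 between the conditions compared, with exact permutation p values of 0.656 or more in the 4 comparisons within 1 genotype or 1 activity. No ratio passed in any of the 15 tests.

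**Figure D4:**
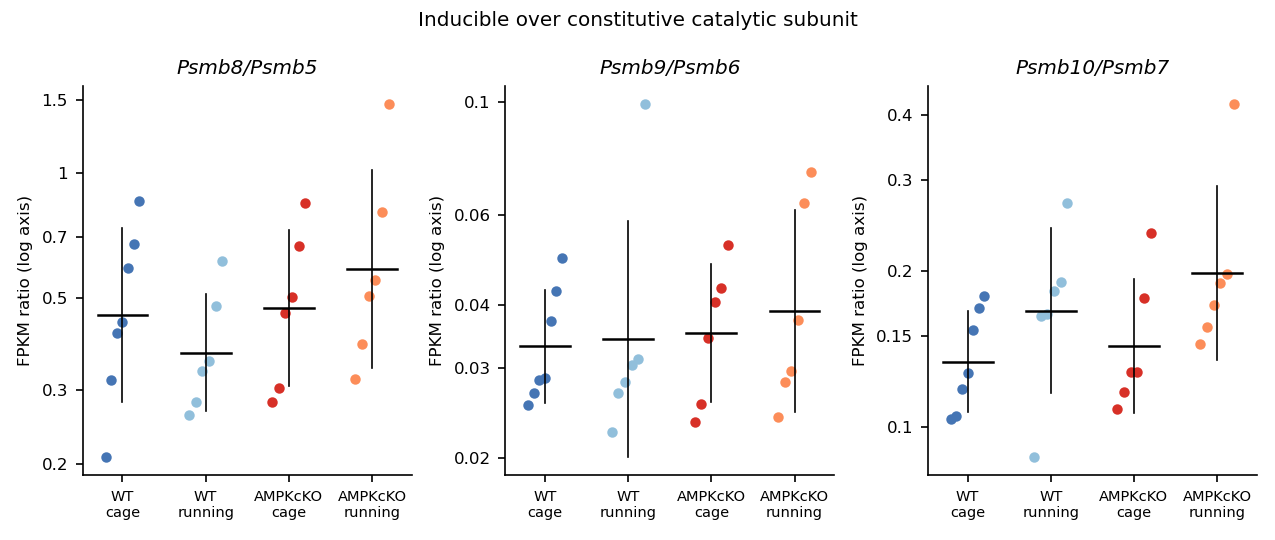
FPKM ratio of each inducible catalytic subunit to its constitutive counterpart (log axis) in 4 conditions, with 1 point per library, a bar at the geometric mean and a line of 1 SD on the log2 scale. Psmb8/Psmb5 reaches 1.47 and Psmb10/Psmb7 0.42 in a single cKO running library, Psmb9/Psmb6 reaches 0.0994 in a single WT running library, and the conditions overlap in every panel.

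The remaining accessory members gave no calls. Psmf1, the inhibitor, lay between 9.05 and 17.5 CPM over all libraries, with 0.12 ± 0.13 SE for cKO against WT at cage activity and -0.21 ± 0.14 SE in runners. Psme1 differed by at most 0.07 in size in the genotype and running contrasts within 1 group. Psmd9 and Psmd10, cap chaperones, had 0.17 ± 0.18 SE and -0.01 ± 0.20 SE for running in WT. Psmg1, a core chaperone, had 0.40 ± 0.22 SE in that comparison (adjusted p = 0.59, edgeR). Psmg2 had 0.07 ± 0.20 SE and Psmg4 0.03 ± 0.21 SE.

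In scaled CPM, most constitutive subunits were higher in libraries with more muscle marker RNA. Over the 25 libraries, Pearson's r with the score passed a permutation test for 31 of 46 members after Benjamini-Hochberg adjustment over the 19132 tested genes outside the score, 29 of them positive and 2 negative. Of all these genes 33.1% passed, 18.5% with a positive and 14.6% with a negative r, and the median r was -0.05. Spearman's rho passed for 28 members and for 26.7% of all genes. Among the 31 constitutive subunits all r were positive, the median r was 0.66, and 27 passed by Pearson's r and 24 by Spearman's rho. Psma5, Psma7, Psmb3 and Psmb5 did not pass by Pearson's r. The score and all genes share each library's depth and scaling. The factor that scales library size was 1.41 and 1.24 in the 2 libraries lowest in score, and 0.748 and 0.703 in the 2 highest. Before that scaling, all 48 members together took 0.1893% and 0.1969% of counts in the former and 0.1934% and 0.1815% in the latter. In these libraries the unscaled share thus did not rise with the score.

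Psmd12 had an r of 0.84 (permutation p = 1e-05, the smallest that 100000 permutations can give, adjusted 0.000154) and a rho of 0.73. Without the 2 libraries farthest from the median score, cKO running male replicate 2 at -2.07 and WT cage female replicate 1 at -1.53, its r was 0.72. Psme4 had an r of 0.88 and a rho of 0.84, and an r of 0.84 without these libraries. Not all members held as well: Psmb4 went from 0.50 to 0.04 and Psmb5 from 0.47 to 0.24, and the median of the constitutive subunits from 0.66 to 0.60, so the relation of Psmb4 rested on those libraries. For Psmc4 the r was 0.65 over all libraries and 0.90 within conditions. The median r of the constitutive subunits within conditions was 0.76, and without the 2 libraries of the less common project name it was also 0.76.

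Of the 5 inducible members, 2 passed, both with a negative r. Psmb8 had an r of -0.59 (permutation p = 0.00191, adjusted 0.00915) and a rho of -0.50 (adjusted 0.047). Psmb9 had an r of -0.54 (permutation p = 0.00621, adjusted 0.0231) and a rho of -0.52 (adjusted 0.0362). Psme2 had an r of -0.46 and a rho of -0.34 and did not pass (permutation p = 0.0199, adjusted 0.0577). Without the 2 farthest libraries these r were -0.33, -0.36 and -0.11. The chaperone gene Psmd5 had an r of -0.02 and Psmg3 of -0.08, among the smallest in size. Psmb10 had -0.23 and Psme1 0.13, which was 0.44 without the 2 farthest libraries.

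**Figure D5:**
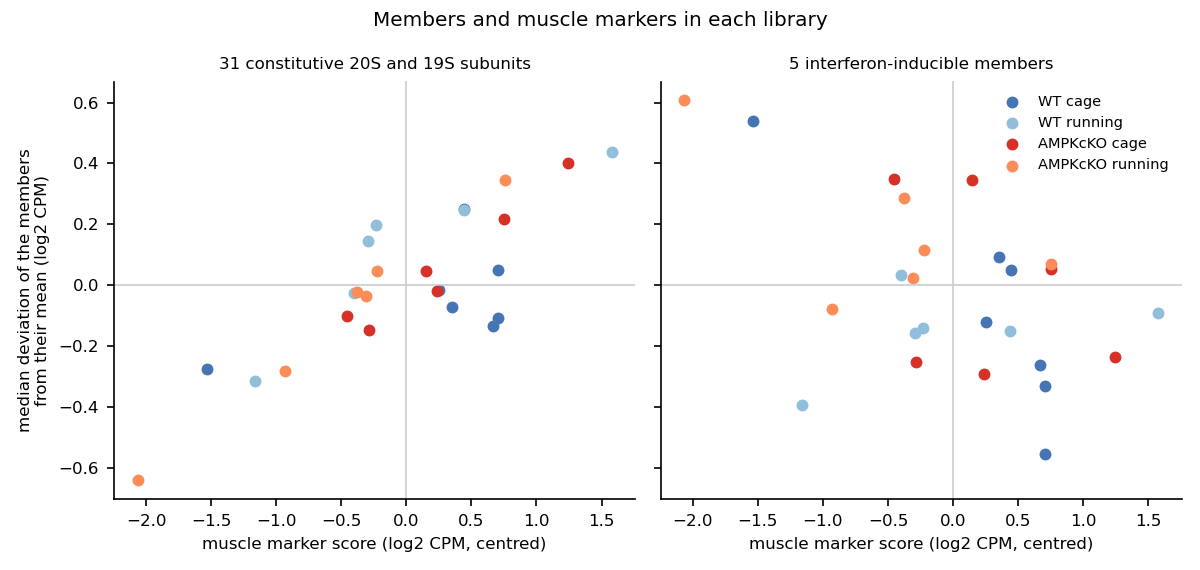
Median deviation of the 31 constitutive subunits (left) and of the 5 inducible members (right) from their own means, in log2 CPM, against the muscle marker score of each library, coloured by condition. The constitutive median runs from -0.64 in the library with the lowest score, a cKO runner, to 0.44 in the one with the highest, a WT runner, while the inducible median is 0.61 and -0.09 in these libraries.

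Genes that work with the proteasome were read in the same fits. Of 12 shuttle factors, deubiquitinases and ligases that bind the proteasome, 1 was called in the running mean, beside 273 of 19155 genes (1.43%). This was Ube3a, a ubiquitin ligase that docks on the cap, with a log2 fold change of -0.34 ± 0.09 SE (adjusted p = 0.0498, edgeR), just under the threshold. In WT its mean was 105.1 ± 14.9 CPM (SD, n = 7) at cage activity and 86.6 ± 21.9 CPM (SD, n = 6) with running. In cKO it was 106 ± 23.8 CPM and 82.1 ± 10.9 CPM (SD, n = 6 each). Of 12 transcription factors of proteasome genes and their processing enzymes, none was called in the genotype or running comparisons, and Foxo1 (-0.21 ± 0.09 SE) and Stat3 (0.15 ± 0.07 SE) had the smallest p in the running mean. Foxo3, which drives proteolysis genes in muscle, had a log2 fold change of -0.38 ± 0.06 SE in males against females (adjusted p = 0.000886, edgeR). In that comparison 118 of 19155 genes (0.616%) were called.

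The other partner lists gave no calls in any comparison. Of the other subunits and assembly factors, 4 of 5 were tested, and Ecpas (-0.24 ± 0.12 SE) and Adrm1 (0.13 ± 0.08 SE) had the smallest p in the running mean. Among 8 genes of ubiquitin and its activation these were Uba6 (-0.23 ± 0.11 SE) and Uba3 (-0.12 ± 0.11 SE), and among 8 ubiquitin ligases of muscle Fbxo30 (-0.22 ± 0.08 SE) and Trim63 (-0.45 ± 0.22 SE). Of 17 genes of the interferon-gamma axis and class I antigen processing, 13 were positive in cKO against WT runners (median 0.16) and 9 at cage activity (median 0.01). In the running mean Jak2, a kinase of interferon signalling, had the smallest p of that list (-0.20 ± 0.07 SE).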

How the data were processed

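Total RNA of Achilles tendons was sequenced in 25 libraries. The submitters' processing notes name cutadapt 2.3, FastQC 0.11.8, STAR 2.7.8a, RSEM 1.3.3 and GRCm38 (mm10). The deposited expected counts per gene, which are whole numbers in the file, and the deposited FPKM values were used. The strand setting is not given in the sources used here. Groups, sex and replicate numbers came from the labels. The 4 reporter entries were kept out of library sizes.

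Genes were kept by edgeR's filterByExpr on the 4 conditions. Counts were scaled by TMM and fitted with 4 condition means and sex by edgeR 4.0.16 (quasi-likelihood, R 4.3.3), with Benjamini-Hochberg adjustment over 19155 genes and calls at 0.05. A log2 fold change is given with its SE. Set summaries are counts and medians with no test. FPKM alternatives used limma 3.58.1 on log2(FPKM + 1) or log2(FPKM + 0.1), and voom and DESeq2 1.42.0 were further alternatives. Ratios were tested by exact permutation within 1 genotype or 1 activity, and by 100000 permutations for all runners against all cage libraries (numpy). The relation of all genes to the muscle score was added after the data were seen. Scripts were tested on simulated data. Positions and exon overlaps came from GENCODE on GRCm38.

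Named members were those called, the 2 higher and 2 lower with the smallest p per comparison, the catalytic pairs, all activators, the inhibitor and chaperones, members under the filter and the extremes of level and spread. Partner genes were named when called, else the 2 per list with the smallest p in the running mean. A gene that this rule names is not reported here. Members, lists and tests were chosen with earlier results of these data known.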

Additional observations from a re-analysis of the deposited data

Results flagged for a closer look

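In each condition, the highest and lowest library of each tested member and of each of the 3 catalytic ratios were set against their nearest neighbour (Dixon's criterion at 95%). Of 196 such groups, 23 held a library that stood apart, 11.7%, where chance flags about 1 in 20 groups. Members that vary together flag the same library, so these are not separate events.

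By this criterion, WT cage female replicate 3 stood apart as the highest WT cage library in 5 structural genes. These were Psmc3 at 120.5 CPM, Psmd4 at 156.4 CPM, Psmb1 at 70.5 CPM, Psma6 at 54.9 CPM and Psmb3 at 29.0 CPM. Without standing apart, it was also highest of its condition for other structural genes, such as Psmd2 at 148.1 CPM and Psmd11 at 78.7 CPM. In the same way cKO running female replicate 3 stood apart as highest for Psmc3 at 129.5 CPM, Psmb1 at 86.7 CPM and Psmb3 at 34.1 CPM. It too was highest of its condition for further structural genes, such as Psmd2 at 150.3 CPM and Psmd11 at 94.3 CPM. Psmd4 reached 164.3 CPM in cKO cage male replicate 2. In cKO cage female replicate 2, Psmg3 reached 4.48 CPM and Psmb9 4.96 CPM.

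WT cage female replicate 1 had the second-lowest muscle score. By the criterion it stood apart as lowest of its condition for Psmd1 at 67.6 CPM and Psme4 at 57.1 CPM. It stood apart as highest for Psmb8 at 23.7 CPM, Psme2 at 27.0 CPM and Psmg1 at 7.16 CPM. Without standing apart, it was also lowest for other structural genes, such as Psmd2 at 81.9 CPM. The library with the lowest score, cKO running male replicate 2, stood apart as highest for Psmb9 at 5.46 CPM and for the Psmb10/Psmb7 ratio at 0.42. Without standing apart, this library was lowest of its condition for structural genes such as Psmd12 at 16.4 CPM. The part of muscle content in these values was not tested.

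WT running male replicate 3 was one of the pair apart on the second principal component. By the criterion it was flagged as lowest of its condition for Psmd14 at 18.9 CPM. It was flagged as highest for Psmb9 at 6.63 CPM, Psmg1 at 9.29 CPM and the Psmb9/Psmb6 ratio at 0.0994. Without a flag, it was also lowest for other structural genes, such as Psmd2 at 101.9 CPM and Psmd12 at 37.5 CPM. Psme4 reached 227.8 CPM in WT running male replicate 1, the library with the highest muscle score.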

How the results depend on the processing

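Results were recomputed under 39 other settings, not each in every one, which gave 2106 values. Of these, 2050 were counted as the same, 38 as changed in sign, 12 as moved and 6 as passing the threshold. A median counted as the same within 0.2138 of the main one, the SD of the per-library median, whatever its sign. The 38 therefore leave out small medians that turned. With 1 library left out, the median of all members ranged from -0.0318 to 0.0411 in the running mean. For cKO against WT as the mean of both activities it ranged from -0.0756 to 0.0042. With the muscle covariate 3 members were called in the WT and in the mean running comparison, with Psmc4 at 0.43 and 0.35. In the running mean, limma-voom called 1 member (Psme4, -0.40), limma on log2(FPKM + 1) and log2(FPKM + 0.1) called 2, with Psmc4 at 0.30 in both, and limma on log2(FPKM + 1) with no filter called 1, with Psmc4 at 0.30. No member was called in any of the 25 fits that left out 1 library. The FPKM scale, in the order FPKM + 1, FPKM + 0.1 and no filter, moved the median of all members for running in cKO to 0.17, 0.17 and 0.17 and for the interaction to -0.04, -0.0406 and -0.04. In the same order it turned Psme2 for running in WT to 0.14, 0.15 and 0.14 (limma-voom 0.0048), Psme3 for running in cKO to 0.0903, 0.0943 and 0.0903 and Psmc6 in the running mean to 0.0755, 0.0772 and 0.0755. The cause of these shifts was not tested.

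As a ratio of CPM, the log2 difference in the catalytic ratios turned for cKO against WT at cage activity to -0.0042 (Psmb8/Psmb5), -0.0393 (Psmb9/Psmb6) and -0.0032 (Psmb10/Psmb7), and for running in WT to -0.15 (Psmb9/Psmb6) and -0.12 (Psmb10/Psmb7). Without the pair of WT running libraries apart on the second component, Psmb9/Psmb6 turned to -0.29 for running in WT and to -0.0178 in the running mean. Leaving out 1 library at a time, Psmb8/Psmb5 ranged from -0.14 to 0.21 for cKO against WT at cage activity and from -0.14 to 0.0824 in the running mean. Psmb9/Psmb6 ranged from -0.0296 to 0.20 for cKO against WT at cage activity, from -0.26 to 0.17 for running in WT, from -0.0345 to 0.29 for running in cKO and from -0.0305 to 0.16 in the running mean. Psmb10/Psmb7 ranged from -0.044 to 0.18 for cKO against WT at cage activity. No ratio passed after adjustment in any of the settings run.

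All-gene calls moved by more than 1.5 times for running in WT, in cKO and in their mean, from 25, 8 and 273 to 157, 208 and 637 by DESeq2, to 90, 384 and 912 by limma-voom, to 197, 574 and 715 with no filter, to 347, 15 and 420 with the muscle covariate, to 14, 3 and 147 on log2(FPKM + 0.1), to 2, 0 and 76 on unfiltered FPKM, and to 12, 3 and 127 without the 2 libraries of the less common project name. On log2(FPKM + 1) they were 19, 5 and 155, and without the pair of WT running libraries 6, 16 and 218. With no filter, 4, 282, 91 and 65 genes were called in the 3 genotype comparisons and the interaction, and 445 between the sexes. Of the latter, main calls of 118 became 251 by DESeq2, 442 by limma-voom, 228 with the muscle covariate, 41, 46 and 29 on the FPKM scales and 29 without eGFP libraries. Replicate numbers did not pair the libraries: of 34 same-number pairs 4 had a correlation of deviations over 0.1, and 4 of 25 libraries correlated best with their own number. With the replicate block 0 members were called, and 0, 0, 0, 12, 1, 148 and 0 genes in the 3 genotype comparisons, the 3 running comparisons and the interaction. Without the libraries with eGFP no cKO runner was left, so only cKO against WT at cage activity, running in WT and the sexes could be fitted, each with 0 members called. Psmb9, which had 20 to 236 counts in a library, had wide intervals.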
